A study of Mus musculus and Sus scrofa with 30 samples.

Results

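10 genes of the Wnt pathway or linked to restraint of fat cell formation were followed in cultured mouse and pig cells. They were the secreted or membrane-bound factor Dlk1, the Wnt ligands Wnt5a and Wnt10b and the Wnt binding proteins Sfrp1 and Sfrp2. The others were the Wnt pathway genes Tcf7l2 and Axin2 and the transcription factors Sox9, Gata2 and Gata3. All 10 were taken by gene symbol, ignoring case. This matched 9 of the 24843 genes of the mouse table and 10 of the 34307 genes of the pig table. Mouse Sfrp1 was not analysed here. Bulk poly(A) RNA-seq was made from 30 cultures on day 5 of adipogenic differentiation, 15 of 3T3-L1, a mouse embryonic fibroblast line that can be turned into adipocytes, and 15 of DFAT, porcine cells obtained by dedifferentiating fat cells of subcutaneous fat. Each cell system had 5 groups of 3 libraries: the solvent DMSO (vehicle), dicoumarol, magnolol, both compounds together (combination) and rosiglitazone, an agonist of the adipogenic nuclear receptor PPARG. Every group, vehicle included, received an induction mix. For 3T3-L1 it held 10% serum, insulin at 0.75 µg/mL, dexamethasone at 75 nM and IBMX at 37.5 µM. For DFAT it held 2% serum, dexamethasone at 0.5 µM, biotin at 20 µM, IBMX at 12.5 µM and pantothenate at 10 µM. Thus no group was an uninduced control, and the labels state no concentration for the tested compounds. Nothing in the labels says what sets replicates of a group apart, so the p-values measure the spread between these cultures, which may be technical.

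As background, canonical Wnt ligands such as WNT10B bind Frizzled and LRP receptors, stabilise beta-catenin and, through TCF factors such as TCF7L2, keep preadipocytes from becoming adipocytes. WNT5A acts mostly without beta-catenin, SFRP proteins bind Wnt ligands outside the cell, and AXIN2 is both a target and an inhibitor of the pathway. DLK1 (also called PREF1) is a marker of preadipocytes that is lost as they differentiate, SOX9 acts with it in preadipocytes, and GATA2 and GATA3 hold back the expression of PPARG.

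Values are the deposited counts after division by a size factor per library, called normalized counts here, and the 2 tables were normalized separately. Library depth estimated from the steps of the low values was 22.8 to 30.7 M reads (1 M being 1e6) in 3T3-L1 and 44.8 to 70.5 M in DFAT. Log2 fold changes are differences of log2(normalized count + 1), and a gene is called when its limma p, adjusted over all tested genes of its table, is under 0.05. The adipocyte marker adiponectin set the groups in the same order in both systems. Adipoq averaged 453 ± 310 (SD, n = 3) in 3T3-L1 vehicle, 1216 ± 737 for dicoumarol, 2945 ± 970 for magnolol, 3737 ± 1560 for the combination and 13829 ± 6450 for rosiglitazone. In DFAT, ADIPOQ averaged 28.3 ± 12.0 in vehicle and 293 ± 50.7, 1522 ± 346, 2184 ± 246 and 3980 ± 643 in the same order. All 8 adipocyte markers and all 5 fibroblast markers were detected in 3T3-L1, and 8 and 4 of them were measured in DFAT. The mitochondrial share of reads reached 14.3% and 11.6% in 3T3-L1 rosiglitazone replicates 1 and 3, against 7.66% in replicate 2 and 5.22 to 7.72% in the other treatments. In DFAT it was 9.58 to 10.2% with vehicle, 10.7 to 11.7% with dicoumarol, 10.5 to 12.9% with magnolol, 12.2 to 15.1% in the combination group and 6.85 to 10.8% with rosiglitazone. Every DFAT library given dicoumarol, magnolol or both was above every vehicle library in this share.

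Of the members, 8 had a mean of at least 10 normalized counts in 3T3-L1 and 9 had it in DFAT, and only these were tested. In 3T3-L1, none of the 8 was called with dicoumarol, where the called share of all genes was 0%. Of them 1 had an unadjusted limma p under 0.05, as did 393 of all 15723 tested genes. With magnolol 1 of 8 was called (all genes, 1.23%, of which lower 0.153%), and the combination gave 2 of 8 (all genes, 5.22%, of which lower 1.36%). With rosiglitazone 4 of 8 were called (all genes, 40.1%, of which lower 19.9%). Every one of these members was lower than in vehicle. In DFAT, 1 of 9 was called with dicoumarol (all genes, 1.94%), 2 of 9 with magnolol (all genes, 4.22%), 3 of 9 with the combination (all genes, 10.2%) and 1 of 9 with rosiglitazone (all genes, 10.8%). These fits left out the replicate number. The members they called against vehicle were Dlk1, Sfrp2, Wnt5a and Sox9 in 3T3-L1 and SFRP2, WNT10B and SOX9 in DFAT. Same-numbered 3T3-L1 libraries deviated together. With the number as a block, Dlk1 with magnolol, Sox9 and Wnt5a with the combination and Gata2 with rosiglitazone were called lower there too. The comparisons of a system share its 3 vehicle libraries, so they are not independent of each other. In bulk samples such as these, fewer cells of a type and less RNA per cell cannot be told apart.

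**Figure D1:**
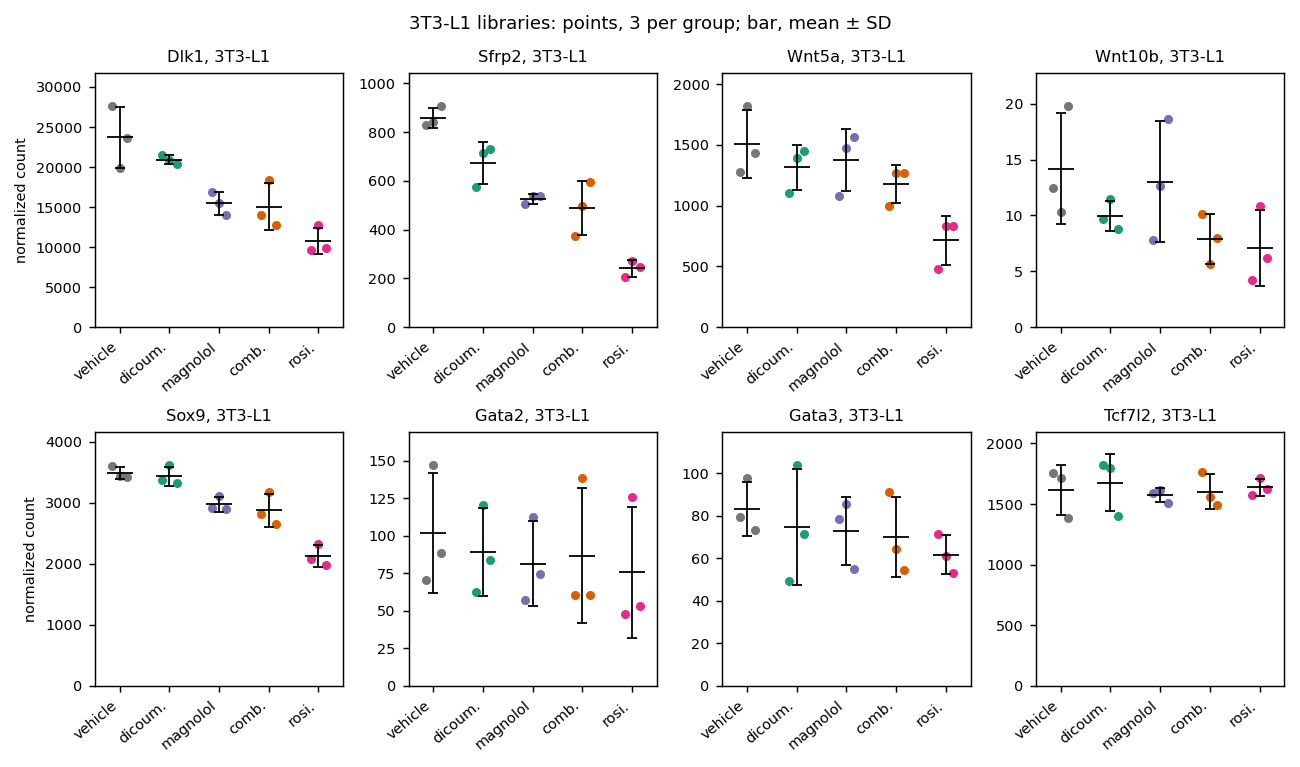
Normalized counts (y axis, linear from 0) of the 8 members tested in 3T3-L1, in 5 groups (x axis) of 3 libraries each; points are libraries in replicate order and bars the mean ± SD. Dlk1, Sfrp2, Wnt5a and Sox9 lie lowest with rosiglitazone, the Tcf7l2 groups overlap, and 1 library of each group stands high for Gata2.

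Dlk1 (ENSMUSG00000040856, chromosome 12, 109418749 to 109429262, plus strand) encodes the epidermal growth factor-like protein that preadipocytes shed. Gene coordinates are given as deposited, and their build is not settled, since few mouse starts equal those of a GRCm38 annotation. Its normalized counts in 3T3-L1 were 27581, 19864 and 23620 with vehicle and 21524, 20840 and 20384 with dicoumarol. They were 16884, 15493 and 13982 with magnolol, 13972, 18400 and 12794 with the combination, and 9664, 12694 and 9920 with rosiglitazone. The vehicle and dicoumarol ranges overlapped, as did those of magnolol and the combination, while every magnolol, combination and rosiglitazone library lay below every vehicle library. Dlk1 fell 1.58-fold in the combination group (log2 fold change -0.66, SE 0.15, limma adjusted p = 0.0148) and 2.20-fold with rosiglitazone (-1.14, SE 0.15, limma adjusted p = 2.14e-05). With magnolol the log2 fold change was -0.61 (limma adjusted p = 0.0564), and with dicoumarol -0.17, 95% interval -0.48 to 0.14. Same-numbered 3T3-L1 libraries deviated together, and with the replicate number as a block the magnolol difference was called (limma adjusted p = 0.0116, range over 12 alternatives 0.0116 to 0.272). Leaving out vehicle replicate 1 (limma adjusted p = 0.0714), combination replicate 1 (0.0893) or combination replicate 3 (0.0771) ended the combination call, its 12 alternatives spanning 0.00307 to 0.0893. The rosiglitazone call held in all 12. In DFAT, DLK1 (chromosome 7, 121565854 to 121576654, plus strand) was at 0 in 12 of 15 libraries and at most 0.934 in the others, the worth of about 1 read, so no difference was detectable at this depth.

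The promoters of the 2 members with the largest falls in 3T3-L1 that the RefSeq tables cover are shown, since these genes fell together. RefSeq windows were matched for 7 of the 10 members (9 windows, mouse build GRCm38.p6) and the 250 bases before the start were read 5′ to 3′ on the gene's strand. These GRCm38.p6 positions are not to be combined with the deposited gene coordinates. Capitals mark matches, on either strand, to CTTTGA (a core recognised by TCF/LEF factors), GATAA (GATA factors), ACAAT (SOX factors), AGGTCA (a nuclear receptor half-site) or TGACG (a cAMP response half-site). The GATAA and TGACG letters were chosen after the windows had been looked at.
Dlk1, chr12:109452573-109452822, plus strand: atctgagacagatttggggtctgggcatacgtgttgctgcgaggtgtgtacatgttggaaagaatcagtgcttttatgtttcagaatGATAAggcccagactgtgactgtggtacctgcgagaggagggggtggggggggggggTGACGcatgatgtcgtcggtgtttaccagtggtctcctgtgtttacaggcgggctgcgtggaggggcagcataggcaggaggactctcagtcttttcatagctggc
Sfrp2, chr3:83766071-83766320, plus strand: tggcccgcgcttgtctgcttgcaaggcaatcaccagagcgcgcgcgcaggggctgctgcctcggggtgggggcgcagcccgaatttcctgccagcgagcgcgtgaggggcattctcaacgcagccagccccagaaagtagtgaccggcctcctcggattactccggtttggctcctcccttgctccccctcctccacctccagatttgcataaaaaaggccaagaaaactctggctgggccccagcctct
Counting back from -1 at the base before the start, the Dlk1 window held 1 GATAA at -163 to -159 and 1 TGACG at -106 to -102, and the Sfrp2 window held none of the 5 motifs. Of 32536 windows of the same length, 22.5% held GATAA and 17.85% held TGACG, so a match is common. CTTTGA was in 13.89% of them, ACAAT in 27.4% and AGGTCA in 14.04%. None of the 9 member windows held CTTTGA or AGGTCA, which says only that those letters are not there. The first Tcf7l2 window held 2 ACAAT and 1 TGACG, its second window 1 GATAA, and the Wnt10b window 1 TGACG.

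Sfrp2, which encodes a secreted protein that binds Wnt ligands, was the member with the most calls. With magnolol and the combination it went opposite ways in the 2 systems, and with rosiglitazone it fell in both. In 3T3-L1 (chromosome 3, 83673628 to 83681623, plus strand) the normalized counts were 828, 841 and 906 with vehicle and 573, 715 and 732 with dicoumarol. They were 503, 539 and 539 with magnolol, 372, 497 and 595 with the combination, and 203, 271 and 248 with rosiglitazone. Every treated library lay below every vehicle library, and every rosiglitazone library lay below all the others, while the magnolol and combination ranges overlapped. Sfrp2 fell 1.63-fold with magnolol (log2 fold change -0.70, SE 0.15, limma adjusted p = 0.0317), 1.79-fold in the combination group (-0.84, SE 0.15, limma adjusted p = 0.00382) and 3.58-fold with rosiglitazone (-1.84, SE 0.15, limma adjusted p = 4.30e-07). With dicoumarol the log2 fold change was -0.36, 95% interval -0.68 to -0.03 before adjustment (limma adjusted p = 1.00). The magnolol call was lost when any 1 of the 6 libraries compared was left out, with limma adjusted p between 0.0737 and 0.168. It was also lost with no variance trend (limma adjusted p = 0.0870). The magnolol call held in 5 of 12 alternatives, the replicate block among them, within a limma adjusted p range of 0.000662 to 0.168. The combination and rosiglitazone calls held in all 12 alternatives.

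In DFAT, SFRP2 (chromosome 8, 75337144 to 75345921, plus strand) stood at 6106, 5979 and 6438 normalized counts with vehicle and at 9068, 8533 and 8562 with dicoumarol. It stood at 10136, 9302 and 9183 with magnolol, at 10096, 9158 and 10705 with the combination, and at 3922, 4566 and 4281 with rosiglitazone. All 9 libraries given either compound or both were above the vehicle libraries, and all 3 rosiglitazone libraries were below them. The gene rose 1.41-fold with dicoumarol (log2 fold change 0.50, SE 0.069, limma adjusted p = 0.000522), 1.54-fold with magnolol (0.63, limma adjusted p = 1.77e-05) and 1.61-fold with the combination (0.69, limma adjusted p = 2.58e-06). It fell 1.45-fold with rosiglitazone (-0.54, limma adjusted p = 3.18e-05). All 4 calls held in all 12 alternatives of each. The dicoumarol libraries lay below those of magnolol and of the combination, which overlapped one another.

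The summed level of fibroblast markers moved along with SFRP2 in DFAT, though the single markers did not all move the same way. The summed level of the 4 measured fibroblast markers was 1.82 to 1.96 M normalized counts with vehicle, 2.58 to 2.72 M for dicoumarol, 2.92 to 3.42 M for magnolol, 2.95 to 3.42 M for the combination and 1.45 to 1.61 M for rosiglitazone. Of these 4, 2 were called higher and 1 lower with magnolol, and likewise with the combination. With dicoumarol 1 was called higher and 1 lower, and with rosiglitazone 0 higher and 1 lower. The collagen gene COL1A1 rose with the combination (log2 fold change 0.85, limma adjusted p = 0.00038), while the receptor PDGFRA fell (-0.86, limma adjusted p = 7.2e-06). In 3T3-L1 the 5 fibroblast markers summed to 0.263 to 0.285 M with vehicle, 0.228 to 0.266 M for dicoumarol, 0.220 to 0.260 M for magnolol, 0.201 to 0.233 M for the combination and 0.148 to 0.200 M for rosiglitazone, where 5 of 5 were called lower. Their part in the changes of Sfrp2, Dlk1 and the other members was not tested, nor was that of the mitochondrial share, which differed from vehicle in the 3T3-L1 rosiglitazone group and in the DFAT dicoumarol, magnolol and combination groups. Macrophage markers were measured too. In 3T3-L1, 3 of 5 reached a mean of 10, and their sum was 234 to 269 normalized counts with vehicle, 201 to 229 with dicoumarol, 191 to 227 with magnolol, 190 to 209 for the combination and 123 to 171 for rosiglitazone. Of these 3, 1 was called lower with rosiglitazone, Cd14 (log2 fold change -1.32, limma adjusted p = 3.1e-06), and its part was not tested. In DFAT 2 of 5 reached that mean and none was called against vehicle, with sums of 830 to 1017 in vehicle and 669 to 1036 over the treated groups. Of the other lineages, no endothelial, bone or cartilage marker reached a mean of 10 in 3T3-L1, and in DFAT 1 of 5 endothelial, 1 of 5 bone or cartilage and 0 of 5 skeletal muscle markers did.

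SFRP1, the related Wnt binding protein, was measured in DFAT (chromosome 17, 10436426 to 10489748, minus strand). Its normalized counts were 26274, 29806 and 35408 with vehicle, 32997, 36789 and 38807 with dicoumarol, and 32683, 40495 and 39598 with magnolol. They were 36311, 41294 and 42342 with the combination and 21992, 31131 and 27307 with rosiglitazone. Only the combination range was clear of the vehicle range, and the combination libraries lay above all 3 rosiglitazone libraries. Against vehicle no difference was called, the nearest being the combination (log2 fold change 0.40, 95% interval 0.13 to 0.66, limma adjusted p = 0.0522). That difference was called when only the compared groups were fitted (limma adjusted p = 0.0302) and without vehicle replicate 3 (limma adjusted p = 0.0222, range over 12 alternatives 0.000626 to 0.223). Rosiglitazone gave less SFRP1 than the combination (log2 fold change -0.59, SE 0.12, limma adjusted p = 0.00325), which held in all 12 alternatives.

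**Figure D2:**
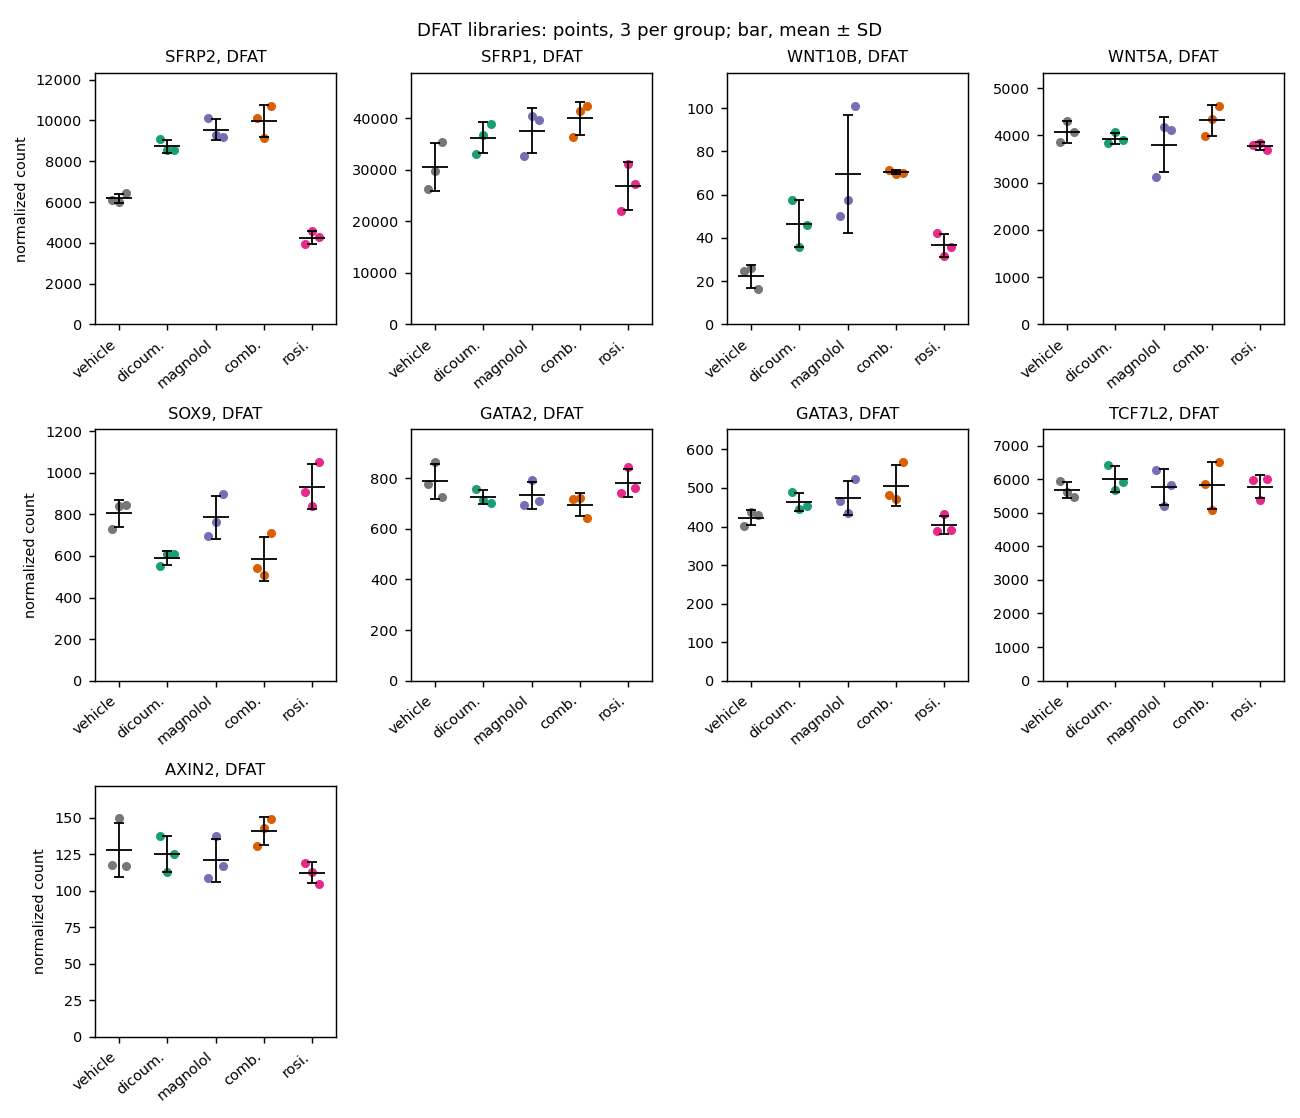
Normalized counts (y axis, linear from 0) of the 9 members tested in DFAT, in 5 groups (x axis) of 3 libraries each; points are libraries in replicate order and bars the mean ± SD. SFRP2 is above vehicle with dicoumarol, magnolol and the combination and below it with rosiglitazone, and WNT10B is above vehicle in every treated library.

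Wnt10b, the canonical ligand best known for holding preadipocytes back, was scarce in 3T3-L1 (chromosome 15, 98668593 to 98676031, minus strand). Its mean over the 15 libraries was 10.4 normalized counts, just above the minimum of 10, with a range of 4.19 to 19.8. The log2 fold change with rosiglitazone was -0.94, 95% interval -1.81 to -0.07 before adjustment (limma adjusted p = 0.0781), and the groups overlapped. It was called without rosiglitazone replicate 2 (limma adjusted p = 0.0282, range over 12 alternatives 0.0282 to 0.276) and with no variance trend (0.0465). In DFAT, WNT10B (chromosome 5, 14997381 to 15003567, minus strand) stood at 24.5, 26.2 and 16.3 normalized counts with vehicle, 57.5, 36.0 and 46.2 with dicoumarol, and 50.2, 57.6 and 101 with magnolol. It stood at 71.6, 69.8 and 70.1 with the combination and at 42.3, 31.7 and 35.6 with rosiglitazone. All 12 treated libraries exceeded the 3 vehicle libraries. WNT10B rose 2.94-fold with magnolol (log2 fold change 1.56, SE 0.26, limma adjusted p = 0.00140) and 3.12-fold in the combination group (1.64, SE 0.26, limma adjusted p = 0.000393), and both calls held in all 12 alternatives. With dicoumarol the log2 fold change was 1.03 (limma adjusted p = 0.0539) and with rosiglitazone 0.70 (limma adjusted p = 0.106), neither of which passed. The 2 genes whose profile over the 15 libraries was most like that of WNT10B were the collagen genes COL5A1 (Pearson r = 0.92) and COL5A3 (r = 0.92).

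Wnt5a, a ligand that mostly works without beta-catenin, differed in 3T3-L1 with rosiglitazone. In 3T3-L1 (chromosome 14, 28226707 to 28249405, plus strand) it stood at 1274, 1817 and 1430 normalized counts with vehicle. Dicoumarol libraries held 1102, 1390 and 1450 and magnolol libraries 1081, 1473 and 1564. Combination libraries held 1000, 1266 and 1269 and rosiglitazone libraries 480, 830 and 835. The rosiglitazone libraries were below all 12 others, the combination libraries were just below the vehicle libraries, and dicoumarol and magnolol overlapped vehicle. Wnt5a fell 2.15-fold with rosiglitazone (log2 fold change -1.10, SE 0.20, limma adjusted p = 0.000502), in all 12 alternatives. With the combination the log2 fold change was -0.35 (limma adjusted p = 0.436), which was called with the replicate block (limma adjusted p = 0.0328, range over 12 alternatives 0.0328 to 0.824). In DFAT, WNT5A (chromosome 13, 37344699 to 37367207, minus strand) ranged from 3128 to 4620 normalized counts over the 15 libraries. Its 4 log2 fold changes against vehicle lay between -0.11 and 0.08, and none was called. For rosiglitazone the 95% interval was -0.30 to 0.08.

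Sox9, a transcription factor of cartilage and of preadipocytes, fell in 3T3-L1 (chromosome 11, 112673050 to 112678586, plus strand). Its normalized counts were 3611, 3445 and 3430 with vehicle, 3367, 3619 and 3322 with dicoumarol, and 2914, 3117 and 2902 with magnolol. They were 2811, 3181 and 2654 with the combination and 2079, 2328 and 1985 with rosiglitazone. Vehicle and dicoumarol overlapped, magnolol and the combination overlapped one another below them, and rosiglitazone lay lowest. The fall with rosiglitazone was 1.64-fold (log2 fold change -0.72, SE 0.085, limma adjusted p = 1.08e-05), in all 12 alternatives. With the combination the log2 fold change was -0.28 (limma adjusted p = 0.0712). With the replicate block it was called (limma adjusted p = 0.00778, range over 12 alternatives 0.00778 to 0.251). Quantile normalization (limma adjusted p = 0.0464) and leaving out combination replicate 2 (0.0347) gave the call too.

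In DFAT, SOX9 (chromosome 12, 8642158 to 8647315, minus strand) stood at 729, 842 and 843 normalized counts with vehicle, 554, 611 and 609 with dicoumarol, and 695, 764 and 899 with magnolol. It stood at 540, 509 and 708 with the combination and at 906, 841 and 1051 with rosiglitazone. The dicoumarol and combination libraries lay below the vehicle libraries, and magnolol and rosiglitazone overlapped them. SOX9 fell 1.38-fold with the combination (log2 fold change -0.47, SE 0.12, limma adjusted p = 0.0201). Leaving out vehicle replicate 2 (limma adjusted p = 0.0656), vehicle replicate 3 (0.0760), combination replicate 1 (0.0838) or combination replicate 2 (0.0947) ended that call, over a range of 0.000914 to 0.0947 in 12 alternatives. The call also ended with no minimum mean (limma adjusted p = 0.0589) and with no variance trend (0.05005), and held in 6 of the 12. With dicoumarol alone the log2 fold change was -0.44 (limma adjusted p = 0.0846). It was called when only the compared groups were fitted (limma adjusted p = 0.0103, range over 12 alternatives 0.00466 to 0.324).

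Gata2 and Gata3, zinc finger factors of preadipocytes, were not called against vehicle in either system. Gata2 in 3T3-L1 (chromosome 6, 88170873 to 88184014, plus strand) stood at 70.4, 147 and 88.3 normalized counts with vehicle. Dicoumarol libraries held 62.7, 121 and 83.9 and magnolol libraries 57.2, 113 and 74.3. Combination libraries held 60.8, 139 and 60.6 and rosiglitazone libraries 48.2, 126 and 53.1. Replicate 2 was the highest library of every group, and each rosiglitazone library was below the vehicle library of the same number. The log2 fold change with rosiglitazone was -0.49 (limma adjusted p = 0.356), and with the replicate block it was called (limma adjusted p = 0.0175, range over 12 alternatives 0.0175 to 0.776). The stress-responsive pseudokinase gene Trib3 (Pearson r = 0.95) and the amino acid transporter gene Slc1a4 (r = 0.94) had the profiles most like that of Gata2 over the 15 libraries. Gata3 in 3T3-L1 (chromosome 2, 9861889 to 9894845, minus strand) ranged from 49.5 to 104 normalized counts, with a log2 fold change of -0.43 with rosiglitazone (limma adjusted p = 0.216). In DFAT, GATA2 (chromosome 13, 71984067 to 71997619, plus strand) ranged from 643 to 863 and GATA3 (chromosome 10, 63367663 to 63388859, minus strand) from 388 to 567. GATA3 was 1.25-fold lower with rosiglitazone than with the combination (log2 fold change -0.32, limma adjusted p = 0.0267). That call was lost without combination replicate 3 (limma adjusted p = 0.134), rosiglitazone replicate 1 (0.0703) or rosiglitazone replicate 3 (0.0792), within a range of 0.0140 to 0.134. Quantile normalization (limma adjusted p = 0.0556) and fitting only the compared groups (0.113) also ended it, and it held in 7 of 12 alternatives.

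Tcf7l2, a TCF factor through which beta-catenin acts, was not called in any comparison in either system. In 3T3-L1 (chromosome 19, 55730252 to 55922086, plus strand) it ranged from 1382 to 1821 normalized counts and in DFAT (chromosome 14, 123343412 to 123546417, plus strand) from 5093 to 6504. With rosiglitazone its log2 fold change was 0.03 in both, with 95% intervals of -0.21 to 0.27 and -0.16 to 0.21. Axin2, a direct target that reports beta-catenin activity, was at most 2.93 normalized counts in 3T3-L1 (chromosome 11, 108811175 to 108841609, plus strand) and was not tested there. In DFAT, AXIN2 (chromosome 12, 12311298 to 12343200, minus strand) stood at 118, 149 and 117 with vehicle. Dicoumarol libraries held 137, 113 and 125 and magnolol libraries 108, 137 and 117. Combination libraries held 130, 143 and 149 and rosiglitazone libraries 119, 113 and 105. The treated groups overlapped vehicle, and the log2 fold change was 0.14 with the combination (95% interval -0.15 to 0.44) and -0.18 with rosiglitazone (-0.47 to 0.11).

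The combination was set against each compound alone and against rosiglitazone. Against dicoumarol no member was called in 3T3-L1 (all genes, 0.0254%) or in DFAT (all genes, 2.35%). An unadjusted limma p under 0.05 was found for 3 of 8 members in 3T3-L1, against 1273 of 15723 genes. In DFAT it was found for 2 of 9 members, against 1882 of 14819 genes. With the replicate block, Sfrp2 (log2 fold change -0.48, limma adjusted p = 0.0165, range over 12 alternatives 0.0165 to 0.999) and Sox9 (-0.26, limma adjusted p = 0.0381, range 0.0381 to 0.980) were called lower than with dicoumarol in 3T3-L1. Against magnolol no member was called in 3T3-L1 (all genes, 0%) or in DFAT (all genes, 0.621%). Unadjusted limma p was under 0.05 for 0 of 8 members in 3T3-L1, against 336 of 15723 genes. In DFAT it was so for 2 of 9 members, against 989 of 14819 genes. For Dlk1 in 3T3-L1 the combination minus magnolol difference was -0.05, 95% interval -0.36 to 0.26, and for SFRP2 in DFAT it was 0.06, interval -0.08 to 0.21. SOX9 in DFAT was lower with the combination than with magnolol in the fit with the replicate block (log2 fold change -0.43, limma adjusted p = 0.0119, range over 12 alternatives 0.0119 to 0.571, and 0.187 without the block). It was also called without combination replicate 3 (limma adjusted p = 0.0358). The interaction of dicoumarol and magnolol, the departure from additive log2 changes, was not called for any member in 3T3-L1 (all genes, 0%) or DFAT (all genes, 0.081%). Its unadjusted limma p was under 0.05 for 0 of 8 members in 3T3-L1, against 78 of 15723 genes. In DFAT that held for 2 of 9 members, against 582 of 14819 genes. For SFRP2 in DFAT the interaction was -0.43, 95% interval -0.64 to -0.23 before adjustment (limma adjusted p = 0.238).

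Rosiglitazone gave lower levels than the combination for 4 of 8 members in 3T3-L1, where 18.3% of all genes were called in either direction and 8.78% were called lower. These were Sfrp2 (log2 fold change between -1.32 and -0.68 by its 95% interval, limma adjusted p = 0.000996), Sox9 (-0.43, limma adjusted p = 0.00415), Wnt5a (-0.76, limma adjusted p = 0.0194) and Dlk1 (-0.48, limma adjusted p = 0.0339). The Wnt5a call was lost without combination replicate 2 (limma adjusted p = 0.0643), combination replicate 3 (0.0680) or rosiglitazone replicate 1 (0.106), within 6.89e-05 to 0.106. The Dlk1 call held in 5 of 12 alternatives and was lost without combination replicate 1 (limma adjusted p = 0.0557) or 2 (0.146) and without rosiglitazone replicate 1 (0.140) or 3 (0.0978), within 0.0103 to 0.146. It was also lost with no minimum mean (limma adjusted p = 0.0511), no variance trend (0.0593) or only the compared groups (0.0845). In DFAT 5 of 9 members were called, against 17% of all genes. SFRP2 was 2.35-fold lower with rosiglitazone (log2 fold change -1.23, limma adjusted p = 6.17e-09), SFRP1 and GATA3 were lower as given above, and WNT10B was lower by a log2 fold change of -0.94 (limma adjusted p = 0.0199). SOX9 was higher with rosiglitazone (0.68, limma adjusted p = 0.00085, held in all 12 alternatives). The WNT10B call was lost without combination replicate 1 (limma adjusted p = 0.0560) or 3 (0.0513) and without rosiglitazone replicate 2 (0.0614) or 3 (0.0504), within 0.0159 to 0.0614. It was also lost with no minimum mean (limma adjusted p = 0.0528).

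**Figure D3:**
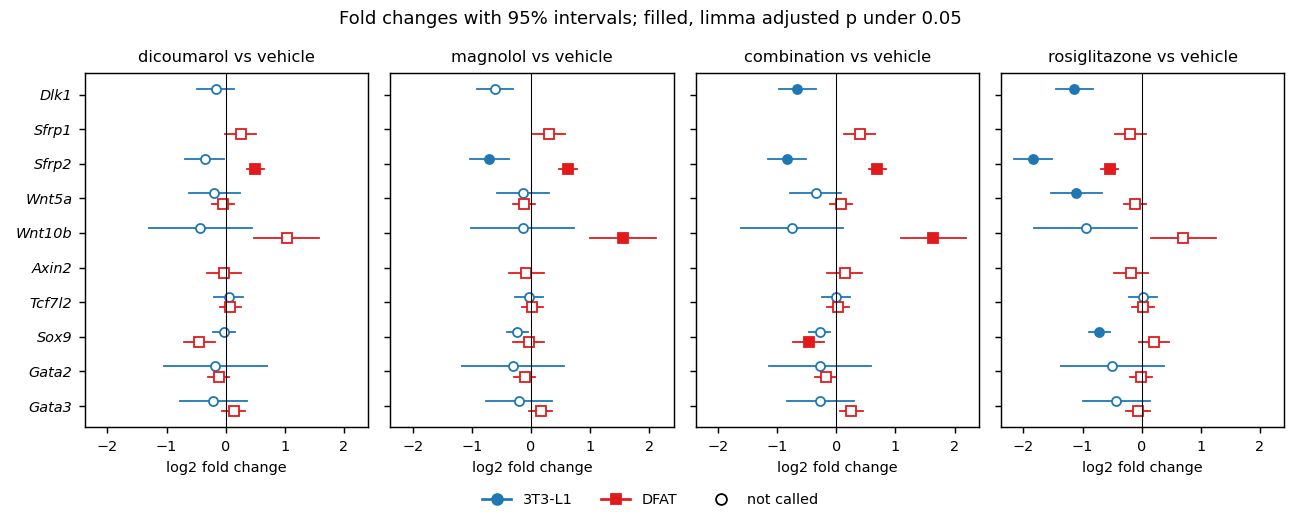
Log2 fold change against vehicle (x axis) of each tested member (y axis) in 3T3-L1 (blue circles) and DFAT (red squares), 1 panel per treatment; lines are 95% intervals before adjustment and filled symbols have a limma adjusted p under 0.05. Sfrp2 lies left of 0 in 3T3-L1 in all 4 panels, and in DFAT right of 0 in 3 panels and left with rosiglitazone.

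Whether a member responded differently in the 2 systems was tested in 1 fit of all 30 libraries over the 9368 symbols measured in both. The difference is the 3T3-L1 log2 fold change minus that in DFAT, each taken within its own table. The systems also differ in species, induction mix and serum, which cannot be told apart. Sfrp2 differed with magnolol (-1.33, SE 0.17, limma adjusted p = 4.14e-05), the combination (-1.53, limma adjusted p = 1.48e-06) and rosiglitazone (-1.30, limma adjusted p = 1.37e-06), each in all 17 alternatives. With dicoumarol the Sfrp2 difference was -0.86 (limma adjusted p = 0.0329), which was lost without 10 of the 12 single libraries (limma adjusted p 0.0551 to 0.139). It was also lost with no variance trend (limma adjusted p = 0.0572). Wnt10b differed for the combination (-2.39, SE 0.49, limma adjusted p = 0.00165) and rosiglitazone (-1.65, limma adjusted p = 0.00926). Sox9 (-0.93, limma adjusted p = 3.28e-05) and Wnt5a (-0.99, limma adjusted p = 0.00164) differed with rosiglitazone. For dicoumarol, magnolol, the combination and rosiglitazone, in that order, 1, 1, 2 and 4 of 7 members were called, against 0.0961%, 3.28%, 11.6% and 38.7% of all shared genes.

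Other genes of the pathway were counted from lists by role. In 3T3-L1 with rosiglitazone, 6 of 17 tested Wnt receptor and co-receptor genes fell and none rose, with a median log2 fold change of -0.22 against a median near 0 over all genes. Of all genes 40.1% were called in that comparison and 19.9% were lower, and nothing particular to a list is read from its count. The receptors that fell included the Frizzled receptors Fzd1 and Fzd7 (-0.89 each, limma adjusted p = 0.0005 and 0.00016) and the WNT5A receptor Ror1 (-1.19, limma adjusted p = 0.0012). Of 22 intracellular components 5 fell and 2 rose, which is no larger a called share than that of all genes, with beta-catenin, Ctnnb1, at -0.52 (limma adjusted p = 7.8e-05). Ctnnb1 also fell with the combination (-0.28, limma adjusted p = 0.045). Of 4 other ligands 1 fell, Wnt4 (-0.37, limma adjusted p = 0.035). Among 3 secreted inhibitors Sfrp5 rose (2.66, limma adjusted p = 0.00032) and Dkk3 fell (-1.83, limma adjusted p = 0.00022). Among 6 targets, genes that Wnt signalling raises in other settings, Myc rose (1.04, limma adjusted p = 1.6e-05) while 3 fell, among them Ccn5 (-0.73) and Ccn4 (-0.74).

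In DFAT the pathway calls went both ways with the combination and with rosiglitazone. Every called gene of the pathway lists, those of the next paragraph included, was higher with magnolol and lower with dicoumarol. The called share of all genes was 1.94% for dicoumarol, 4.22% for magnolol, 10.2% for the combination and 10.8% for rosiglitazone. Of 14819 tested genes 438 were called higher and 188 lower with magnolol, and 906 and 602 with the combination. With rosiglitazone these counts were 860 and 744, and with dicoumarol 135 and 153. Again nothing particular to a list is read from its count. With the combination 4 of 8 secreted inhibitors rose and none fell, among them DKK2 (log2 fold change 0.97, limma adjusted p = 0.00017), APCDD1 (0.95, limma adjusted p = 0.015) and SFRP5 (0.64, limma adjusted p = 0.00077), with a list median of 0.43. The ligand WNT5B rose with magnolol (0.44, limma adjusted p = 0.0015) and the combination (0.54, limma adjusted p = 0.0001). Of 17 receptor genes 2 rose and 1 fell with the combination, and 1 rose and 5 fell with rosiglitazone. FZD4 rose in both (0.53 and 0.69), and ROR1 (-0.89, limma adjusted p = 1.9e-06) and FZD1 (-0.70, limma adjusted p = 0.0009) fell with rosiglitazone. Of 9 targets, NKD1, a feedback inhibitor, rose with magnolol, the combination and rosiglitazone (0.66, 0.72 and 1.42), as did the cyclin gene CCND1 (0.50, 0.56 and 0.39). CCN5 fell with rosiglitazone (-1.37, limma adjusted p = 0.0011). Of 21 intracellular genes 1 fell with the combination, TLE3 (-0.24, limma adjusted p = 0.025), which rose with rosiglitazone (0.22, limma adjusted p = 0.037). For the combination, 1 of 21 is a smaller share than the 10.2% of all genes.

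DLK1 is a relative of the Notch ligands, and genes of its locus and of Notch signalling were counted together. In 3T3-L1 with rosiglitazone, where 19.9% of all genes were lower and 40.1% were called, 5 of 12 fell and 1 rose, with Notch3 at -1.08 (limma adjusted p = 0.0038), the Notch effector Rbpj at -0.66 (limma adjusted p = 0.0029) and the target Hes1 at 0.49 (limma adjusted p = 0.011). In DFAT with the combination 10.2% of all genes were called, 906 of 14819 being higher and 602 lower. Of the 9 genes tested there 3 rose and none fell: JAG1, a Notch ligand (0.61, limma adjusted p = 8.5e-05), NOTCH3 (0.72, limma adjusted p = 7e-05) and NOTCH2 (0.34, limma adjusted p = 0.017). Of a list of other factors linked to the control of adipogenesis, 8 of 12 fell and 1 rose in 3T3-L1 with rosiglitazone (all genes, 19.9% lower), with a median of -0.54. Sox5 (-1.08), the GATA cofactor Zfpm1 (-0.83) and the nuclear receptor Nr2f2 (-0.60) were among them. In DFAT 3 of 16 fell with the combination (all genes, 10.2% called, 602 of 14819 lower). They included ID2 (-0.71, limma adjusted p = 9.9e-05) and NR2F2 (-0.33, limma adjusted p = 0.0017), and both also fell with dicoumarol alone (-0.62 and -0.28).

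**Figure D4:**
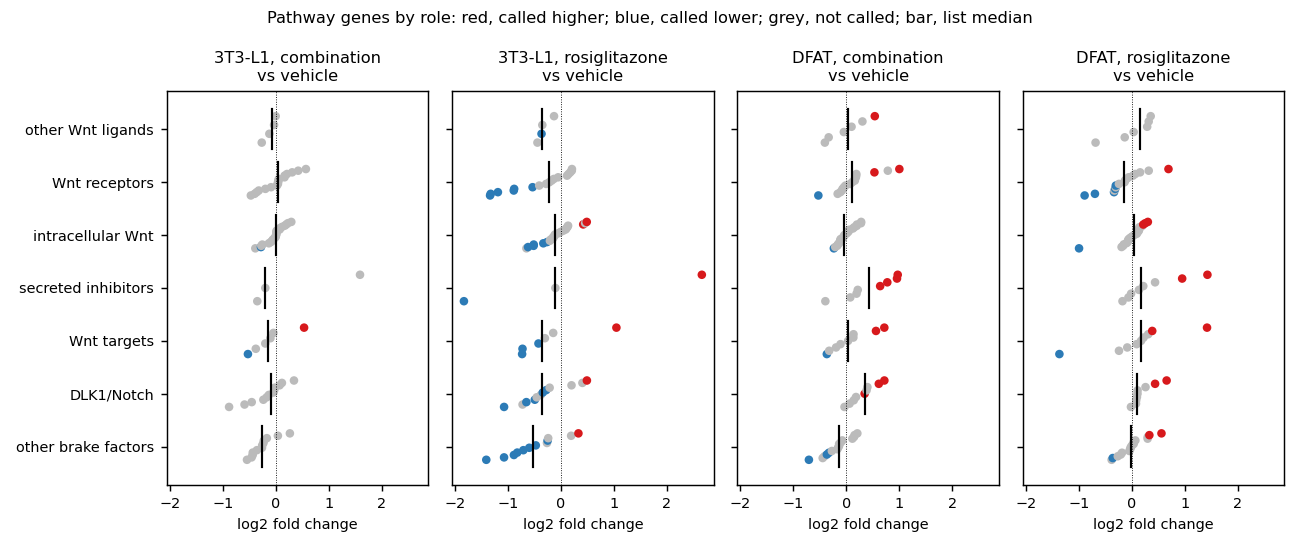
Log2 fold change against vehicle (x axis) of every tested gene of 7 lists (y axis) with the combination or rosiglitazone in each system; points are genes, red called higher, blue called lower, grey not called, and bars are list medians. Most called genes in 3T3-L1 with rosiglitazone are blue, while in DFAT with the combination all 4 called secreted inhibitors are red.

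For each tested member the genes of the same table with the most similar profile over the 15 libraries were read as a description. These libraries share their treatments and depth, so high values are common. For Dlk1 in 3T3-L1 they were Pbxip1 (Pearson r = 0.98) and Efemp2 (r = 0.97), and for Sfrp2 Plscr1 and Leprot (r = 0.98 each). For Wnt5a they were Acvr1 and Lrrc8c (r = 0.99 each), and for Sox9 Tinagl1 and Adamtsl5 (r = 0.98 each). In DFAT the nearest to SFRP2 were ASPN, a small matrix proteoglycan gene (r = 0.97), and CHRDL1 (r = 0.97), and to SFRP1 FSTL1 and AGTR1 (r = 0.98 each). SOX9 was nearest to ESM1 and SEMA3A (r = 0.90 each), whose mean normalized counts, 414 and 1145 with vehicle, were 143 and 739 with the combination. For members never called in DFAT the likeness was weaker, with TCF7L2 nearest to LRIG1 (r = 0.86), GATA2 to GCH1 (r = 0.86), WNT5A to PAM (r = 0.80) and AXIN2 to ADHFE1 (r = 0.79). Calls and likeness were read from the same 15 libraries, so they are not independent of each other.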

How the data were processed

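The files hold, per the submitters' processing notes and the file names, gene counts that the authors divided by DESeq2 size factors. The deposited values are thus a normalized count signal, with 1 table per species. The authors also used bcl2fastq 2.19.1.403 and STAR and name the mouse build GRCm38, per the same notes. Coordinates are printed as deposited. Of 24070 mouse gene IDs matched to a GRCm38 annotation, 2.18% had the same start and 95.5% the same length, so the build of the deposited coordinates is not settled, and that of the pig table is not given in the sources used here. Whether counting used strand is not given either, so reads of overlapping antisense genes cannot be told apart.

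The values were steps of 1 read for 81.6 to 82.7% (3T3-L1) and 89.8 to 91.0% (DFAT) of low values, within 0.02 of a whole read and up to 20 reads, so reads were not recovered and no count test was run. Estimated depth was 22.8 to 30.7 and 44.8 to 70.5 M reads (1 M being 1e6). The genes whose mean in a table reached 10 (15723 of 24843 in mouse, 14819 of 34307 in pig) were fitted with limma 3.58.1 (R 4.3.3) on log2(value + 1), 5 groups in 1 fit with a variance trend, two-sided, with Benjamini-Hochberg adjustment over all tested genes. The script was tested on simulated data. Tables and figures were made with Python 3.11.15, pandas 2.3.3 and matplotlib 3.10.9.

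The members and lists were chosen with earlier results of these data known. All members are named. Of each pathway list at most 3 genes per table are named, those with the smallest adjusted p against vehicle, and for each member the 2 genes of mean at least 100 with the highest Pearson r. Replicate numbers come from the sample titles. In 3T3-L1 all 30 same-number pairs of libraries had deviations from their group means that correlated above 0.1 (median 0.30), so the numbers pair the samples there. In DFAT 16 of 30 did, and all 3 pairs did in 3 of 10 group pairs, which include the combination with magnolol and with rosiglitazone. Alternatives were a pseudocount of 5, no minimum, quantile normalization, no variance trend, the replicate block, only the compared groups, and leaving out each library. For the differences between systems, the block and the left-out libraries were added after seeing the data.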

Additional observations from a re-analysis of the deposited data

Results flagged for a closer look

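The difference between the 3T3-L1 and DFAT log2 fold changes passed limma's test in 8 cases. For Sfrp2 it was -0.86 for dicoumarol, -1.33 for magnolol, -1.53 for the combination and -1.30 for rosiglitazone. For Wnt10b it was -2.39 with the combination and -1.65 with rosiglitazone. For Sox9 and Wnt5a it was -0.93 and -0.99, both with rosiglitazone. A negative value means that the fold change was lower in 3T3-L1 than in DFAT. Mouse Wnt10b averaged 10.4 normalized counts, near the minimum for testing.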

How the results depend on the processing

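Of 2210 alternative values of single members, none that was called changed sign, and 133 that were not called under either setting had the other sign. With the replicate block the members called in 3T3-L1 went from 1 to 2 with magnolol, from 2 to 4 with the combination and from 0 to 2 for the combination against dicoumarol. With it, the count in DFAT went from 1 to 4 with dicoumarol, where the numbers do not pair the samples, and from 0 to 1 for the combination against magnolol. The members it added against DFAT vehicle were SFRP1 with dicoumarol (limma adjusted p = 0.0454), magnolol (0.00945) and the combination (0.000626), and SOX9 (0.00466) and WNT10B (0.0347) with dicoumarol. The count between systems with the block was 2 for dicoumarol and 2 for magnolol, against 1 each. The block changed no other count by over 1.5 times. For the member counts in this section, the share of all genes called under the same setting is not given. Nothing particular to the members is read from these counts. With no variance trend it was 0 for magnolol in 3T3-L1 and 0 for the dicoumarol difference between systems. The magnolol difference between systems gave 2 with a pseudocount of 5, no minimum, quantile normalization or no variance trend, since Wnt10b passed there. With only the compared groups DFAT dicoumarol gave 2, and with quantile normalization the DFAT interaction gave 1.

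Leaving out each library in turn gave 0 to 0 members in 3T3-L1 with magnolol, 1 to 3 with the combination and 2 to 4 for rosiglitazone against the combination. In DFAT it gave 0 to 1 for the combination against magnolol and 3 to 5 for rosiglitazone against the combination. Between systems it gave 0 to 1 with dicoumarol and 1 to 2 with magnolol. The cause of these changes was not tested. Depth limits mouse Wnt10b, at a mean of 10.4 normalized counts, and mouse Axin2 and pig DLK1 lay below the minimum for testing.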
